A study of Rattus norvegicus with 24 samples.

Results

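The AMPA and NMDA receptor subunits were the 10 reference genes named Gria1, Gria2, Gria3, Gria4, Grin1, Grin2a, Grin2b, Grin2c, Grin2d and Grin3a. They were picked out by gene name among 32883 reference genes, with no threshold on a measured value. The RNA came from the frontal cortex of 24 adult male Sprague-Dawley rats, sampled 24 h after exposure to an inhaled aerosol of tungsten particles. The Control group was exposed at 0 mg/m3, the Low group at 5 mg/m3 and the High group at 80 mg/m3, with 8 rats each. All 24 titles also carry the word Repeat, which the labels do not explain, and neither the number nor the length of exposures is given in the sources used here. One label speaks of cell lines of the frontal cortex, but the study's methods describe tissue, and markers of neurons and glia were found in all rats. All 10 subunits passed the filter on low values that 15644 genes passed, so every subunit was tested.

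AMPA receptors are tetramers of the subunits encoded by Gria1 to Gria4 and carry most of the fast excitatory current in the cortex. An edited residue in the Gria2 product keeps calcium out of the channels that hold it. NMDA receptors need the Grin1 product, which binds glycine or D-serine, together with subunits of the Grin2 genes, which bind glutamate. Grin2b is prominent in the young forebrain, and Grin2a becomes prominent as synapses mature. Grin2c is best known from the cerebellum and astrocytes, Grin2d from the brainstem and interneurons, and the Grin3a product makes receptors with low calcium entry.

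Each subunit had 1 identifier and 1 line in every table, and the positions are those of the tables. Gria1 (ENSRNOG00000045816) spanned 42614713 to 42760200 on the plus strand of chromosome 10, and Grin2a (ENSRNOG00000033942) spanned 5930298 to 6119990 on the same strand and chromosome. Grin2b (ENSRNOG00000008766) spanned 169560387 to 169999873 on the minus strand of chromosome 4. Gria2 (ENSRNOG00000054204) lay on the minus strand of chromosome 2 from 179584308 to 179704629, and Gria3 (ENSRNOG00000007682) on the plus strand of chromosome X from 127562660 to 127829753. Grin1 (ENSRNOG00000011726) lay on the minus strand of chromosome 3 from 2506896 to 2534663. Gria4 (ENSRNOG00000006957) lay on the minus strand of chromosome 8 from 1548146 to 2045817, and Grin3a (ENSRNOG00000005723) on that of chromosome 5 from 64928620 to 65073012. Grin2c (ENSRNOG00000003280) spanned 103798291 to 103816287 on the minus strand of chromosome 10, and Grin2d (ENSRNOG00000021063) spanned 101820461 to 101856881 on the minus strand of chromosome 1. Gria2, Gria3, Gria4 and Grin3a overlapped a small gene on their own strand, and how reads were divided there is uncertain. The genome build behind these positions is open. The submitters' notes name mRatBN7.2, but genes of chromosome 1 reach position 282724300, past the end of that chromosome in mRatBN7.2.

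RefSeq's table of promoters (GRCr8) held 5 of the 10 subunits, and 3 are printed because Grin1 and Gria4 varied together between rats while Grin2c did not follow either of them. Each run gives the 250 bases before the gene's start, 5′ to 3′ on the minus strand, with CG dinucleotides in capitals. Grin1 lies at chr3:28528755-28529004, Gria4 at chr8:10319882-10320131 and Grin2c at chr10:101005139-101005388.
Grin1: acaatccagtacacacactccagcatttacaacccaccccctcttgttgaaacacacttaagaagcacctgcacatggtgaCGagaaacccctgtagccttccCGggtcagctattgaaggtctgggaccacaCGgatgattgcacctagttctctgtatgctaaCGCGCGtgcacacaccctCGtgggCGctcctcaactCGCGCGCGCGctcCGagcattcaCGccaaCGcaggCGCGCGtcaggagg
Gria4: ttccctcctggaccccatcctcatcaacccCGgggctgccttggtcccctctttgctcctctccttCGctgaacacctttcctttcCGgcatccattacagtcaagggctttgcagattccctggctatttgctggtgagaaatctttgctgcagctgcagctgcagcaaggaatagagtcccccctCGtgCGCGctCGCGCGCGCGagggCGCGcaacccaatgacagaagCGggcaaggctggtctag
Grin2c: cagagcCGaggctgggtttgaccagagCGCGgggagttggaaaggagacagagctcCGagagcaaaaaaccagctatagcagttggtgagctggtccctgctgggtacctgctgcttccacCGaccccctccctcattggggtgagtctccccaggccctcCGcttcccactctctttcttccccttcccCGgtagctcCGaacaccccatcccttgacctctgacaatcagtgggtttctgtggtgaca
Grin1 had 19 CG dinucleotides, Gria4 had 14 and Grin2c had 8, against a median of 5 over 33469 promoters of this length. Neither the GC box GGGCGG nor the cAMP response element TGACGTCA was found on either strand in any of the 5 windows, while 30.5% and 1.59% of all promoters held them. A missing match says only that these letters are not in the window.

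Some libraries stood apart before any test. Control replicate 49 and Low replicate 57 had the lowest Gria1, Grin3a, Grin2a and Grin2c of their groups. They also had the lowest summed markers of excitatory neurons (1045 and 1249) and astrocytes (775 and 898) of their groups. Control replicate 56 and Low replicates 57 to 62 had scaled coverage of 5449 to 8102 over 8 small genes of the mitochondrial minus strand, against 84.9 to 155 in the other 17 libraries. The 8 Low tables held no assembled loci, whereas the Control and High tables held 46334 to 159573, so the kind of table and the Low exposure cannot be told apart. In High replicates 65, 66 and 67, the sum of 6 striatal markers was 703 to 1160, against 175 to 362 in the other 5 High rats, and at most 732 in Control and 555 in Low. The markers of excitatory neurons were found in all rats, 7 of 7 of them, with sums of 781 to 1381 in these 3 High rats and 1656 to 1932 in the other 5.

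Coverage is the mean read depth per base of a gene, and the levels below are ordered by it. The order can differ in other units. FPKM per unit of coverage, described below, was 1.93 to 2.13 for Gria4 and 1 within rounding for Grin2c. In the FPKM column Gria4 exceeded both Grin2c and Grin2b in most rats. Coverage was scaled to a sum of 1000000 over the reference genes of each library. Over the 24 rats, Gria2 had the highest median scaled coverage at 240, and 97.0% of the tested genes had a lower median. Grin1 followed at 216, Gria3 at 152 and Gria1 at 78.9. Grin2c (42.9), Grin2b (32.6) and Gria4 (31.2) formed the middle of the order, Grin2a (18.5) stood lower, and Grin3a (7.83) and Grin2d (5.42) were the lowest. Grin1 exceeded Gria3, and Gria1 exceeded Grin2c, in 24 of 24 rats. The order was least firm between Grin2b and Gria4, where Grin2b was higher in 18 of 24 rats, and between Grin3a and Grin2d, with 19 of 24. The values of every neighbouring pair overlapped over all rats.

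**Figure D1:**
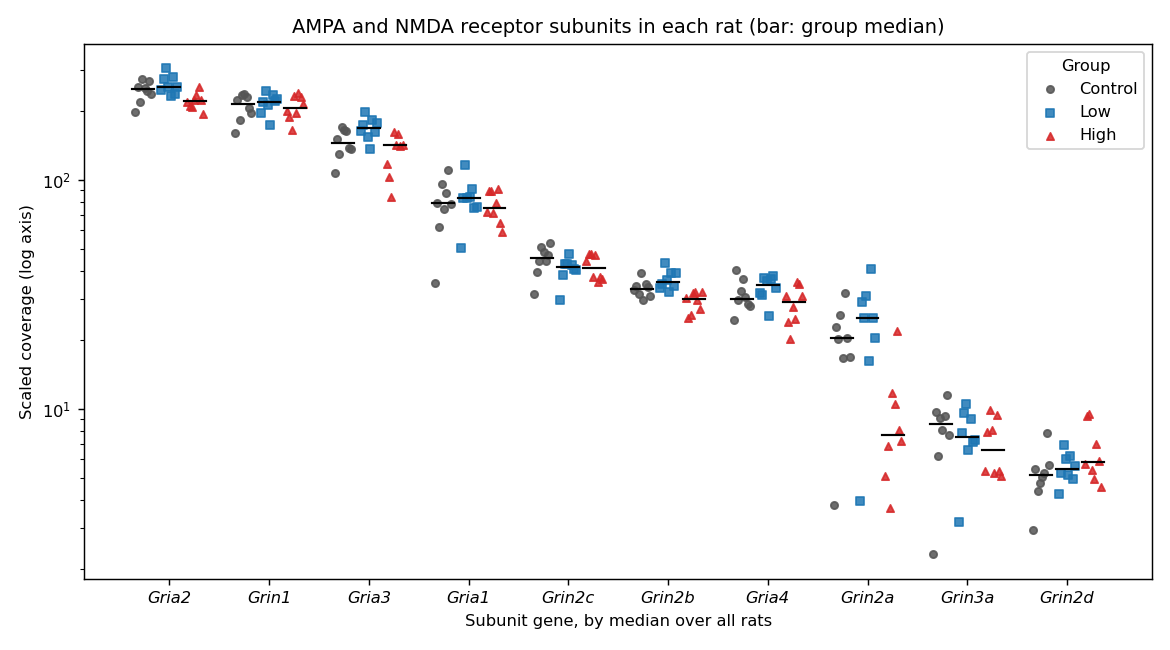
Scaled coverage of the 10 subunits (log axis) in each rat, with circles for Control, squares for Low, triangles for High and a bar at each group's median, in groups of 8 rats. Grin2a has a High median of 7.64 against 20.3 in Control and 24.8 in Low, while the groups of most other subunits lie on top of each other.

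Among the AMPA subunits, Gria2 made up 49.1% ± 2.28 (SD, n = 8) of the summed coverage in Control, 47.9% ± 1.33 in Low and 48.3% ± 2.08 in High. Gria3 made up 29.1% ± 1.85, 30.9% ± 1.60 and 28.4% ± 4.37 in the same order. Among the 4 Grin2 genes, Grin2c had the largest share in each group, with 43.5% ± 4.10 in Control, 38.5% ± 4.28 in Low and 48.0% ± 5.67 in High. Grin2a held 18.4% ± 6.40 in Control, 21.4% ± 8.12 in Low and 10.6% ± 5.86 in High. These shares are of reference coverage alone. In Control, the highest same-strand assembled locus had a median scaled coverage of 43.7 for Grin2a, 36.4 for Grin2b and 26.2 for Grin2c. The order of the Grin2 genes therefore holds for the reference genes only. The shares are descriptions and were not tested.

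High against Control asks what the higher concentration did. Of the 10 subunits, 0 passed an adjusted p under 0.05 (limma, two-sided, Benjamini-Hochberg over all genes tested), as did 0% of all genes, and the exact Wilcoxon rank-sum test also called 0. At an unadjusted p under 0.05 the count was 2 subunits with either test, Grin2a and Grin2b, against 2.11% of all genes in limma and 5.67% with the Wilcoxon test. In bulk tissue, fewer cells of a type and less RNA per cell cannot be told apart. The median log2 fold change of the subunits was -0.12, beside -0.03 over all genes. A positive value was found in 36.0% of all genes, and 8 of the 10 subunits had a negative value. Without any scaling 6 of these 8, all but Grin2a and Grin2b, were positive, in a setting that moved the median of all genes to 0.14. The log2 fold changes of markers were negative for 7 of 7 excitatory markers (median -0.19), 4 of 4 markers of all neurons (-0.09), 6 of 6 oligodendrocyte markers (-0.15), 5 of 6 astrocyte markers (-0.10) and 6 of 6 striatal markers (-0.31). Of the inhibitory neuron markers, 4 of 6 were positive (median 0.03), and of the microglial markers 2 were positive and 3 negative (-0.004). Negative values were also found in 4 of 4 precursor markers (-0.09), 3 of 4 blood markers (-0.10) and 2 of 2 endothelial markers (-0.09). No tested marker was called, and the part of cell composition in the subunit values was not tested.

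Grin2a, which encodes the glutamate-binding subunit of mature synapses, had scaled coverage from 3.81 to 31.9 in Control with a median of 20.3. It ranged from 3.67 to 21.9 in High with a median of 7.64. Of the High rats 7 of 8 lay below the Control median, and the ranges overlapped because Control replicate 49 was at 3.81 and High replicate 70 at 21.9. The log2 fold change was -0.999 (SE 0.394, unadjusted p = 0.0183, adjusted p = 0.999, limma). Without Control replicate 49 and Low replicate 57, left out after their values were seen, it was -1.28 with an adjusted p of 0.0113 in limma, and Grin2a was then the 1 subunit called, when 2.49% of all genes were. These libraries were among the lowest for Grin2a itself, so leaving them out moves the comparison in that direction.

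Grin2b encodes the glutamate-binding subunit that is abundant early in life. Its scaled coverage ran from 29.8 to 39.0 in Control (median 33.4) and from 24.8 to 32.4 in High (median 30.0). All 8 High rats lay below the Control median, and 4 of them below every Control rat. The log2 fold change was -0.19 (SE 0.0699, unadjusted p = 0.0127, adjusted p = 0.999, limma). Grin1, the obligatory subunit, ran from 159 to 236 in Control and from 165 to 239 in High, with medians of 214 and 206 and a log2 fold change of -0.00 (SE 0.0877, adjusted p = 0.999, limma).

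Both tables of this comparison held assembled loci, which StringTie lists beside the reference genes. Such a locus on the same strand overlapped Grin2a in 8 of 8 Control and 8 of 8 High tables. Its scaled coverage was 16.8 to 55.6 in Control (median 43.7) and 15.5 to 41.1 in High (median 33.9). The locus had 1 to 5.92 times the coverage of the reference gene in Control (median 1.996) and 1.88 to 4.85 times in High (median 3.81). In Control replicate 56 the locus and the reference gene had the same coverage. How the same reads entered both features, and what part this had in the reference value, was not tested. The ranges of the locus overlapped between the groups, as those of the reference gene did.

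Low against Control sets the lower concentration against none, in tables that also differ in kind. It shares the 8 Control rats with the comparison above. Again 0 of 10 subunits passed the threshold (limma, adjusted p under 0.05), beside 6.11% of all genes, and 0 passed with the exact Wilcoxon test, beside 2.38%. At an unadjusted p under 0.05 the counts were also 0 with both tests, against 18.4% of all genes in limma and 17.4% with the Wilcoxon test. The median log2 fold change of the subunits was 0.11, beside 0.06 over all genes. A positive value was found in 66.5% of all genes and in 8 of 10 subunits, of which Grin1 was negative with median-of-ratios scaling.

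The AMPA subunit Gria3 came nearest to the threshold. It ranged from 107 to 169 in Control (median 144) and from 135 to 198 in Low (median 168), with 7 of 8 Low rats above the Control median. Its log2 fold change was 0.22 (SE 0.118, unadjusted p = 0.0725, adjusted p = 0.322, limma). Grin2c, at 31.6 to 52.8 in Control (median 45.5) and 29.8 to 47.4 in Low (median 41.6), had a log2 fold change of -0.13 (SE 0.0974, adjusted p = 0.490, limma). The ranges overlapped for both genes.

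Low against High compares the exposed groups directly, but all 8 Low tables held no assembled loci and the High tables did. The kind of table and the concentration cannot be told apart. Here 4 of the 10 subunits passed the threshold in limma, beside 11.7% of all genes, and all 4 were higher in Low, a direction in which 5.3% of all genes passed. They were Gria2 and Gria3 of the AMPA receptor and Grin2a and Grin2b of the NMDA receptor. The exact Wilcoxon rank-sum test called Gria2 and Grin2b, when it called 7.33% of all genes. The median log2 fold change was 0.17 for the subunits and 0.09 for all genes tested. In no subunit were all Low rats apart from all High rats.

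**Figure D2:**
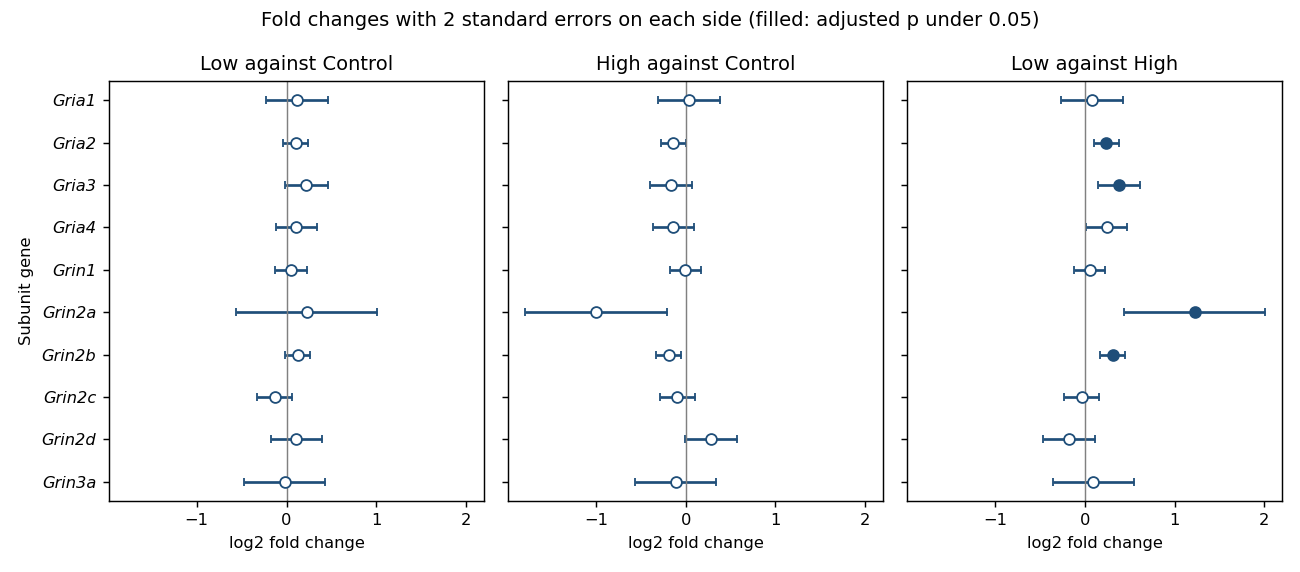
log2 fold change of each subunit on the log2(scaled coverage + 1) scale in the 3 comparisons, with 2 standard errors on each side and filled circles at an adjusted p under 0.05 (limma, 8 rats a group). The 4 filled circles, Gria2, Gria3, Grin2a and Grin2b, are all in Low against High and lie between 0.24 and 1.22.

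Grin2b had the smallest p-value of the subunits in this comparison. It ranged from 32.2 to 43.3 in Low (median 35.6), while the High rats, at 24.8 to 32.4 (median 30.0), were all below 7 of the 8 Low rats. The log2 fold change was 0.31 (SE 0.0699, 1.24-fold, adjusted p = 0.0043, limma). Gria2, which sets the calcium permeability of AMPA receptors, had a Low median of 254 (232 to 306) and a High median of 220 (194 to 252). All 8 Low rats exceeded the High median and 5 exceeded every High rat. Its log2 fold change was 0.24 (SE 0.0698, 1.18-fold, adjusted p = 0.0249, limma).

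Gria3 had a Low median of 168 (135 to 198) and a High median of 141 (83.8 to 162). In 6 of 8 Low rats it was above every High rat, and the lowest High values came from replicates 65, 66 and 67. The log2 fold change was 0.38 (SE 0.118, 1.304-fold, adjusted p = 0.0358, limma). Grin2a had the largest change, with a Low median of 24.8 (3.95 to 40.9) and a High median of 7.64 (3.67 to 21.9), 5 of 8 Low rats above every High rat and Low replicate 57 near the bottom of the High range. Its log2 fold change was 1.22 (SE 0.394, 2.33-fold, adjusted p = 0.0454, limma).

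The other 6 subunits were not called between Low and High. Gria4, the remaining AMPA subunit of the middle range, came nearest with a log2 fold change of 0.24 (SE 0.113, adjusted p = 0.154, limma), with medians of 34.8 in Low (25.4 to 37.8) and 29.3 in High (20.1 to 35.8). Gria1, Grin1, Grin2c and Grin3a had log2 fold changes from -0.04 to 0.09. Grin2d was at -0.17 (SE 0.144, adjusted p = 0.429, limma), with its highest High values, 9.28 and 9.43, in replicates 66 and 67.

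The remaining subunits overlapped widely between all groups. Gria1, an AMPA subunit tied to synaptic plasticity, had medians of 78.7 in Control (35.4 to 110), 83.1 in Low (50.5 to 116) and 75.5 in High (59.0 to 91.1). Grin3a had medians of 8.6 in Control (2.31 to 11.5), 7.53 in Low (3.21 to 10.5) and 6.61 in High (5.07 to 9.88). The High against Control log2 fold change of Grin2d, whose medians were 5.12 in Control (2.94 to 7.81) and 5.82 in High (4.54 to 9.43), was 0.28 (SE 0.144, unadjusted p = 0.0598, adjusted p = 0.999, limma).

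The 4 calls depended on which libraries were compared. When each of the 24 rats was left out in turn, 1 to 4 subunits were called, Grin2b in 24 of 24 cases, Gria2 in 21, Gria3 in 17 and Grin2a in 7. Over all genes, the calls ran from 1266 of 15659 without Low replicate 62 to 2676 of 15664 without Control replicate 49. Of the subunits, Grin2b was the 1 call left without Low replicate 59 or 62. Without Low replicate 58 or 64, or High replicate 65, 66, 67 or 72, 2 subunit calls were left. Without High replicates 65, 66 and 67, chosen after their striatal markers were seen, 0 of the 10 subunits were called while 5.96% of all genes were, and the adjusted p in limma was 0.0575 for Grin2b, 0.132 for Gria2, 0.295 for Gria3 and 0.252 for Grin2a. Their log2 fold changes were then 0.24, 0.21, 0.17 and 0.86. With libraries 56 to 62 as a covariate 0 subunits were called, beside 2.26% of all genes, although Grin2b (0.35), Gria3 (0.42) and Grin2a (1.31) kept log2 fold changes of at least the size found without it, and Gria2 was at 0.20. Leaving libraries 56 to 62 out gave 0 as well, again beside 2.26% of all genes, and left 2 Low rats. In these Grin2b was at 34.4 and 39.2, both above the highest High rat.

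They also depended on the scaling. Without scaling 0 subunits were called, beside 7.99% of all genes, and with median-of-ratios scaling, which sets the median of all genes near 0, Grin2a was the 1 subunit called, beside 10.6%. The TPM column called Gria2, Gria3, Gria4 and Grin2a but not Grin2b, beside 25.2% of all genes. The FPKM column called 9 subunits in each comparison with Low, beside 89.7% of all genes for Low against Control and 89.8% for Low against High. Grin2a was lost with a pseudocount of 0.1, with no filter and with a minimum mean of 5, where the other 3 were called. Of all genes, 11.8%, 7.85% and 10.1% were called in these settings. The log2 fold changes of the 4 subunits were positive in each of the alternatives shown for them.

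**Figure D3:**
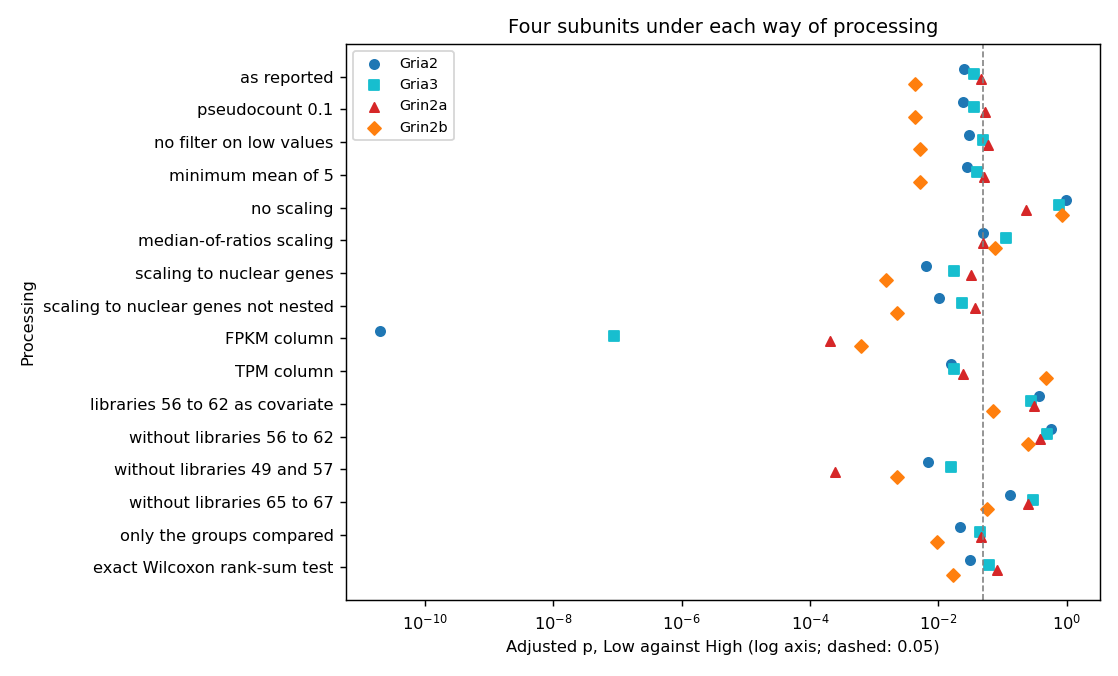
Adjusted p of Gria2, Gria3, Grin2a and Grin2b for Low against High (log axis, dashed line at 0.05) as reported and under 15 other ways of processing, from limma or, in the bottom line, exact Wilcoxon rank-sum tests. All 4 lie right of the line without scaling, with libraries 56 to 62 as covariate or left out, and without libraries 65 to 67.

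Cell type markers were summed beside these results. The 4 markers of all neurons had a median sum of 1357 in Low (1088 to 1553) and 1156 in High (853 to 1355), and 4 of 4 had a positive fold change with 0 called. The medians of the 7 excitatory markers were alike, 1676 in Low and 1674 in High. Within the excitatory list the median log2 fold change was 0.32, with 5 of 7 positive and 0 called. Of all genes tested, 69.9% had a positive fold change for Low against High. Oligodendrocyte markers had medians of 5618 in Low and 4918 in High, astrocyte markers 1455 and 1143, microglial markers 126 and 120, and the small list of 3 endothelial markers 37.2 and 33.0. Inhibitory neuron markers had medians of 786 and 781 and precursor markers of 101 and 91.7. Striatal markers, 6 of 6 found, ran from 243 to 555 in Low and from 175 to 1160 in High. Blood markers had medians of 877 and 954, and choroid plexus and cerebellar granule cell sums stayed at or under 30.2 in both groups, with a highest Control value of 72.2 for choroid plexus in replicate 49. Of the 61 markers listed, 53 passed the filter on low values, and 0 of these were called in any of the 3 comparisons (limma). The part of cell composition in the subunit results was not tested.

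Ratios of subunits do not depend on how a library is scaled, but they depend on the column, and these are of reference coverage. The log2 ratio of Grin2b to Grin1, the balance of a glutamate-binding subunit against the obligatory one, was -2.55 ± 0.0823 (SD, n = 8) in Low, -2.82 ± 0.167 in High and -2.63 ± 0.197 in Control. Low exceeded High by 0.27 (p = 0.000932, or 0.00839 adjusted over 9 tests, from an exact permutation of the rats over 12870 divisions, two-sided). Low lay between -2.68 and -2.43 and High between -3.07 and -2.59, so the ranges met at their edges. FPKM per unit of coverage, described below, had medians of 1.21 in Low and 1.11 in High for Grin1. For Grin2b it reached 1.83 in High. In the FPKM column the mean of this log2 ratio was not higher in Low than in High. The kind of table differs between these groups as well. The difference in coverage stayed past the threshold without High replicates 65 to 67, at 0.30 (adjusted p = 0.0280, exact permutation test). It was 0.23 (adjusted p = 0.300, same test) when libraries 56 to 62 were left out and 2 Low rats remained. High and Control differed by -0.19 (p = 0.0527, adjusted p = 0.119, exact permutation test).

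The log2 ratio of Grin2a to Grin2b, which describes the mix of the main forebrain Grin2 genes, was -0.95 ± 0.902 (SD, n = 8) in Control, -0.84 ± 0.983 in Low and -1.84 ± 0.729 in High. The High mean less the Control mean was -0.89 (p = 0.0491, adjusted 0.119, by the same exact permutation) and Low exceeded High by 0.99 (p = 0.0404, adjusted p = 0.119). Control replicate 49 at -3.11 and Low replicate 57 at -3.09 were lower than every High rat. Without both, the differences were -1.20 and 1.32 (adjusted p = 0.00746 each, exact permutation test), and without High replicates 65 to 67 they were -0.54 and 0.65 (adjusted p = 0.629 each). Without Control replicate 49 alone the High and Control difference was -1.20 (adjusted p = 0.00979), without Low replicate 57 alone the Low and High difference was 1.32 (adjusted p = 0.0112), and without High replicate 70 both differences had an adjusted p of 0.0485 (exact permutation tests). The log2 ratio of Gria1 to Gria2 was -1.70 ± 0.352 in Control, -1.69 ± 0.270 in Low and -1.53 ± 0.209 in High, and its adjusted p was 0.366 or more in the 3 comparisons (exact permutation test, n = 8).

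**Figure D4:**
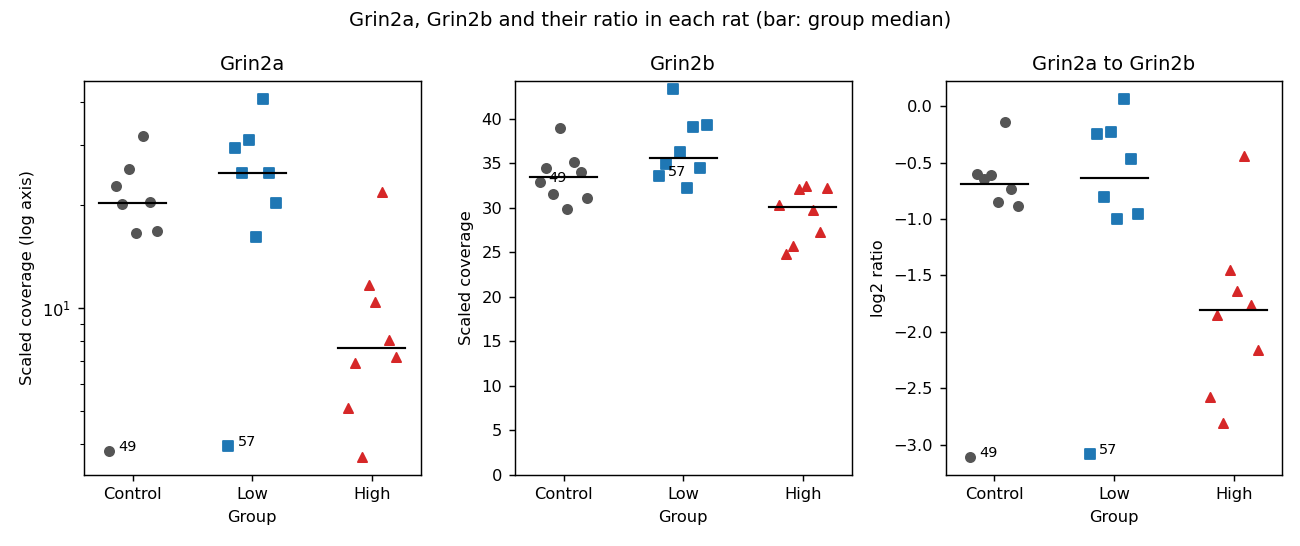
Scaled coverage of Grin2a (log axis) and Grin2b and the log2 ratio of Grin2a to Grin2b in each rat, with a bar at the median of each group of 8 and the numbers of Control replicate 49 and Low replicate 57. These libraries lie at 3.81 and 3.95 for Grin2a, far under the rest of their groups, but within their groups for Grin2b.

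Between rats of the same group, many subunits varied together. Over the 24 rats, with group means removed, Pearson's r of the log2 values was above 0 in 39 of 45 pairs, with a median of 0.48. All subunits of a library share its depth and tissue composition, which vary between rats, so these values are descriptions. Gria3 and Grin1 had the highest r, 0.92, and Gria4 and Grin1 had 0.82. A second set was formed by Gria1, Grin3a and Grin2d, with r of 0.91 for Gria1 and Grin3a, 0.81 for Gria1 and Grin2d and 0.80 for Grin2d and Grin3a. Between Gria4 and Grin2c it was -0.21. Without libraries 49 and 57, 29 of 45 pairs were above 0 and the median was 0.29. Grin2c then had an r below 0 with 7 of the 9 other subunits, at -0.68 with Gria4, -0.60 with Grin1, -0.56 with Gria3 and -0.53 with Grin2a, where it had been 0.39. In the same 22 libraries Gria3 and Grin1 stayed at 0.91, Gria1 and Grin3a were at 0.75, and Grin2a and Grin3a went from 0.75 to 0.29.

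**Figure D5:**
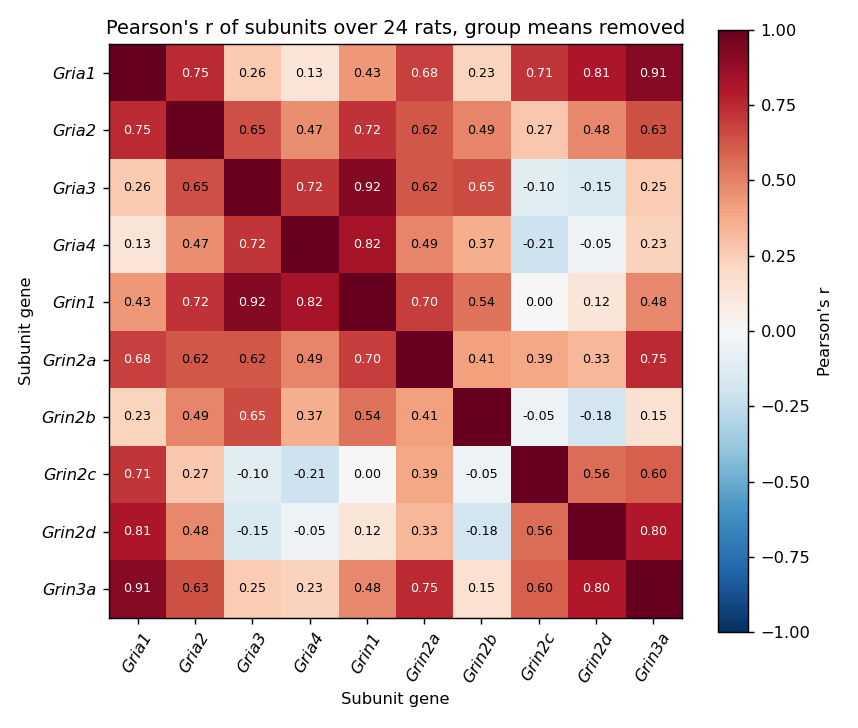
Pearson's r of log2(scaled coverage + 1) for each pair of subunits over 24 rats after removal of the group means, from -1 (blue) to 1 (red). The set of Gria3, Gria4 and Grin1 (0.72 to 0.92) and the set of Gria1, Grin2d and Grin3a (0.80 to 0.91) stand out.

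The summed markers of all neurons had an r of 0.91 with Gria3, 0.90 with Grin1, 0.77 with Gria4 and 0.70 with Gria2 on the same scale. Astrocyte markers had 0.87 with Gria1, 0.84 with Grin2c, 0.80 with Grin3a and 0.77 with Grin2d. Microglial markers had 0.87 with Grin2c. Striatal markers had -0.65 with Gria3, and the mitochondrial share had -0.60 with Grin1. Control replicate 49 and Low replicate 57 had the lowest astrocyte sums, Gria1, Grin2c, Grin3a and Grin2d of their groups. The values of r with markers are not given without these libraries. These are sums within the same 24 libraries, described without a test.

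Among 15634 other tested genes, the gene with the highest r was Enc1 for Gria3 (0.97), Pja2 for Grin1 (0.97) and Nalcn for Gria1 (0.97). It was LOC102553088 for Grin3a (0.96), Tmem255a for Grin2d (0.95), Usp46 for Gria2 (0.93), Pamr1 for Gria4 (0.92) and Itga6 for Grin2c (0.91). Grin2b had the weakest nearest gene, Cap2, at 0.72. Without libraries 49 and 57 these 9 values were between 0.76 and 0.97.

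Other genes of glutamate receptors were described from a list of 49, of which 46 were tested. Between High and Control 0 passed the threshold (limma), between Low and Control 1 was higher and 1 lower in Low, and between Low and High 3 were higher and 1 lower in Low. These are 4.35% and 8.7% of the 46 genes, beside 6.11% and 11.7% of all genes, so the shares were not above the background, and the 4 genes below are named for their own values. The kainate, delta and Grin3b subunits (8 tested) and the editing enzymes Adar, Adarb1 and Adarb2 had no gene called in any comparison. Of 16 genes for AMPA receptor auxiliary subunits and assembly, Abhd6, a lipase that limits AMPA receptor delivery, was 51.1 ± 2.99 (SD, n = 8) in Low and 44.5 ± 2.66 in High (log2 fold change 0.20, SE 0.0590, adjusted p = 0.0317, limma). The median log2 fold change of the 46 genes was 0.11 for Low against High, beside 0.09 over all genes, and -0.07 for High against Control, beside -0.03.

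Of 13 trafficking and clustering genes, Nsf, an ATPase that binds the Gria2 product, was 505 ± 54.5 (SD, n = 8) in Low and 409 ± 41.3 in High (log2 fold change 0.30, SE 0.0786, adjusted p = 0.0128, limma). Dlg3, which encodes the scaffold SAP102, was lower in Low, at 39.2 ± 7.33 against 55.3 ± 7.73 in Control and 52.3 ± 4.30 in High, with log2 fold changes of -0.49 (adjusted p = 0.00345) and -0.42 (adjusted p = 0.00818, limma). Of 6 genes of co-agonist supply and removal that were tested, Ddo, the oxidase of D-aspartate, was 15.2 ± 2.32 in Low, 8.63 ± 1.52 in Control and 10.2 ± 3.68 in High. Its log2 fold changes were 0.75 against Control (adjusted p = 0.00681) and 0.60 against High (adjusted p = 0.0219, limma). With libraries 56 to 62 as covariate or left out, 0 of the listed genes were called for Low against High, beside 2.26% of all genes. For Low against Control, 1 was called with the covariate (2.31%) and 0 without these libraries (2.2%). Each of these calls sets Low tables against tables of another kind, which cannot be told apart from the exposure.

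The reference coverage and the FPKM column can be compared to see how transcripts of a subunit were modelled. FPKM per unit of coverage, times the bases that the table implies were sequenced, was 1 within rounding for Grin2a, Grin2c and Grin3a in all 24 rats. It was 1.93 to 2.13 for Gria4, and for Grin2b the median was 1 in each group, with values up to 1.83 in single Control and High rats. Gria1 had 1.27 in all 8 Low rats and medians of 1.18 in Control and 1.19 in High, and Grin1 had medians of 1.21 in Low and 1.11 in both others. The kind of table differs with Low here too, and cannot be told apart from the exposure.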

How the data were processed

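Polyadenylated RNA was sequenced from stranded libraries, and FastQC, Trimmomatic, TopHat2 and StringTie are named in the submitters' processing notes, with versions not given in the sources used here. The deposited tables give coverage, a signal per base, with FPKM and TPM columns computed by the authors. In Control and High tables TPM sums to 1.70 to 1.98 times 1000000, so the deposited TPM column was treated there as a score. The members and all gene lists were chosen with earlier results of these data known.

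Coverage of each reference gene was divided by the library's sum over reference genes and expressed per 1000000. A gene needed a mean of 1 or more over all rats and was tested on log2(value + 1), which understates changes of low genes, with limma 3.58.1 in R 4.3.3 (1 fit over 24 rats, two-sided, Benjamini-Hochberg, threshold 0.05). Ratios were tested with exact permutation tests (Python 3.11.15, adjusted over 9 tests). Named were all subunits, list genes past the threshold, and for each subunit the other gene with the highest r, which for Grin2a is not reported here. Scripts were tested on simulated data. Alternatives were other pseudocounts, filters, scalings and columns, exact Wilcoxon tests, libraries 56 to 62 as covariate or left out, and each rat left out. Libraries 49 and 57, and 65 to 67, were left out after their values were seen. Read counts are not in the columns used, so depth per gene is unknown. Coverage sums over reference genes were 1.64 to 3.07 times 1000000 per library. Whether each rat is a separate litter or cage was not given, and p-values measure the spread between rats.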

Additional observations from a re-analysis of the deposited data

Results flagged for a closer look

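Of 39 sets of 8 values checked for a far value (10 subunits and 3 ratios in 3 groups), 5 had one. The number expected by chance, about 1.95, takes the sets as independent. The ratios are built from the same subunits and share libraries, so these counts do not show an excess. Grin2a in High replicate 70 had scaled coverage of 21.9, against 3.67 to 11.7 in the other High rats. The log2 ratio of Grin2a to Grin2b was -3.11 in Control replicate 49 (others -0.89 to -0.14) and -3.09 in Low replicate 57 (others -0.998 to 0.06). The log2 ratio of Gria1 to Gria2 was -2.47 in Control replicate 49 (others -1.81 to -1.30) and -2.29 in Low replicate 57 (others -1.73 to -1.40). Both libraries also had the lowest Grin3a and Grin2c of their groups.

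Low and High differed in a direct test for 4 subunits and 1 ratio, while 0 subunits were called for Low or High against Control. The log2 fold changes were 0.24 for Gria2, 0.38 for Gria3, 1.22 for Grin2a and 0.31 for Grin2b. The log2 ratio of Grin2b to Grin1 differed by 0.27 in reference coverage, but its mean in the FPKM column was not higher in Low. Low tables are of another kind than High tables, which cannot be told apart from the exposure.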

How the results depend on the processing

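The 10 subunits gave 0 calls for Low against Control, 0 for High against Control and 4 for Low against High, and the other glutamate receptor genes gave 2, 0 and 4. The FPKM column gave 9, 0 and 9 subunits and 39, 0 and 42 other genes, where 89.7% and 89.8% of all genes were called in the comparisons with Low and the median of all genes moved to 0.53 and 0.52. The TPM column gave 9 other genes in both comparisons with Low, beside 25.4% and 25.2% of all genes. For Low against High, the subunits called were 0 without scaling, 1 with median-of-ratios scaling, 2 with the exact Wilcoxon test, 0 with libraries 56 to 62 as covariate, 0 without them and 0 without libraries 65 to 67. The other genes called there were 1 without scaling (beside 7.99% of all genes), 2 with median-of-ratios scaling (10.6%) and 0 with the covariate (2.26%). They were 0 without libraries 56 to 62 (2.26%), 14 without libraries 49 and 57 (28.8%) and 1 without libraries 65 to 67 (5.96%). For Low against Control the other genes were 1 with the covariate (2.31%), 0 without libraries 56 to 62 (2.2%) and 1 with the exact Wilcoxon test (2.38%). Without libraries 49 and 57, High against Control gave 1 subunit and 2 other genes, beside 2.49% of all genes. Leaving out each rat gave 1 to 4 subunits for Low against High, beside 1266 to 2676 genes called over all. Without libraries 49 and 57 the log2 ratio of Grin2a to Grin2b differed by -1.20 for High against Control and 1.32 for Low against High, and without libraries 56 to 62 that of Grin2b to Grin1 differed by 0.23 for Low against High. Apart from effects of construction (fewer libraries, other units), the cause was not tested.

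Some log2 differences changed sign. Without scaling, High against Control was 0.045 for Gria2, 0.021 for Gria3, 0.043 for Gria4, 0.18 for Grin1, 0.085 for Grin2c and 0.062 for Grin3a, and Low against High was -0.14 for Gria1, -0.16 for Grin1 and -0.11 for Grin3a. With median-of-ratios scaling, Grin1 was -0.0073 for Low against Control, 0.034 for High against Control and -0.042 for Low against High, and Gria1 was -0.017 for Low against High. Scaled to nuclear genes, Grin1 was 0.022 for High against Control, 0.021 without nested genes, and Grin3a was 0.0061 for Low against Control. With FPKM, Grin1 was 0.035 for High against Control, Grin2c was 0.36 for Low against Control and 0.40 for Low against High, Grin2d was 0.18 for Low against High and Grin3a was 0.36 for Low against Control. With TPM they were 0.035 for Grin1 (High against Control), 0.011 for Grin2c (Low against High) and 0.063 for Grin3a (Low against Control). By Wilcoxon shifts, Gria1 was -0.060 for High against Control and Grin2c 0.026 for Low against High. Gria1 for Low against High was -0.0021 with the covariate and -0.012 without libraries 56 to 62. Without libraries 49 and 57, Gria1 was -0.11 for High against Control and Grin2c 0.024 for Low against High, and the log2 ratio of Gria1 to Gria2 was -0.011 for Low against Control, as against -0.0072 by medians. Without libraries 65 to 67, High against Control was -0.040 for Gria1, 0.049 for Gria3 and 0.10 for Grin1, and Low against High was -0.047 for Grin1, 0.056 for Grin2c and 0.0012 for Grin2d.

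Over the 24 leave-outs, Low against Control ran from -0.036 to 0.21 for Gria1, -0.0014 to 0.10 for Grin1, -0.055 to 0.53 for Grin2a and -0.21 to 0.12 for Grin3a, High against Control from -0.11 to 0.12 for Gria1 and -0.056 to 0.043 for Grin1, and Low against High from -0.069 to 0.024 for Grin2c. The log2 ratio of Grin2a to Grin2b ran from -0.20 to 0.43 for Low against Control, -1.20 to -0.75 for High against Control and 0.86 to 1.32 for Low against High. That of Gria1 to Gria2 ran from -0.10 to 0.10 for Low against Control, and that of Grin2b to Grin1 from -0.24 to -0.14 for High against Control, where it passed the threshold without Control replicate 53 (adjusted p = 0.0371, exact permutation test). No paired analysis was possible because every rat has its own replicate number. Libraries 49 and 57, and 65 to 67, were left out as alternatives chosen after seeing the data. Over all alternatives, the counts and ratios kept their direction and side of the threshold, or stayed within 1.5 times the count, in 448 of 495 cases. This total does not measure how firm the 4 subunit calls for Low against High are. It includes counts for High against Control, where 0 genes were called in most settings, so those counts could hardly change. The 4 subunit calls became 0 without scaling (beside 7.99% of all genes), 1 with median-of-ratios scaling (10.6%) and 9 in the FPKM column (89.8%). They stayed 4 with scaling to nuclear genes, beside 16.7% of all genes.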
